A study of Homo sapiens with 12 samples.

Results

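GSTA4, a glutathione S-transferase of the alpha class, was expressed as an open reading frame (ORF) in ARPE-19, a long-established human cell line derived from the retinal pigment epithelium (RPE), and the resulting line was compared with a line expressing the green fluorescent protein GFP. The comparison took the 3 GSTA4 and the 3 GFP libraries of a count table of 12 libraries, and the lines of that table that carry a gene name. These are 40591 of 60605 lines, of which 15179 had enough reads to be tested. The 3 libraries of cells labelled WT served as a second control, to find which differences from GFP were also present against cells with no named ORF.

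Stable lines were collected after 4 days of ORF expression, and poly(A) RNA was sequenced. GSTA4 libraries carried the GSTA4 ORF, GFP libraries the GFP ORF, and WT libraries none that is named. The remaining 3 libraries, labelled OSK, entered the fit but no comparison here. No gene is deleted and no drug is named in any of these groups. Which promoter drives the ORF, and whether the 3 libraries of a group come from 1 stable line or several, are not given in the sources used here. An effect of the ORF and another difference between the lines therefore cannot be told apart, and p-values measure the spread between libraries, which may be technical. In bulk RNA, fewer cells of a type and less RNA per cell also cannot be told apart.

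GSTA4 joins glutathione to reactive aldehydes that form when membrane lipids are oxidised, above all 4-hydroxynonenal. In the RPE, a pigmented layer that ingests shed photoreceptor membranes and recycles retinoids, such aldehydes accumulate with light and age. Neighbouring defences are the aldehyde dehydrogenases, the aldo-keto reductases, the glutathione peroxidases and the enzymes that make glutathione, many of them under the transcription factor NRF2. ARPE-19 cells keep some RPE genes but can drift towards a fibroblast-like, matrix-secreting state, in which TGF-beta signalling is a known driver.

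Total counts ran from 12630675 to 17045454 per library. A library with no read of a gene allows up to 3 reads, which is 0.177 to 0.228 CPM (counts scaled to a common library size, with TMM factors). GFP replicate 1, the shallowest library, carried at least 1 read for 27349 named genes, where the rest carried reads for 19488 to 22073, and counts that move by over 1.5 times without it are given both ways. WT replicate 1 stood apart from the other WT libraries, with a chi-square per degree of freedom of 13.8 and 16.0 against them and 2.5 between them. Without it 3135 genes were called in the same direction against both controls, and 2936 with it. RPE markers were present in all 3 groups: of 15 listed, 12 passed the read filter, and the list's summed level was 1576 to 1648 CPM in GSTA4, 2189 to 2523 in GFP and 2419 to 2658 in WT. The keratin KRT8 was the largest part of that sum, at a mean of 678 CPM in GSTA4, 842 in GFP and 1245 in WT. Gene by gene the order of the controls was different, with 9 of the 12 called higher and 2 lower in GFP than in WT. RPE65, the retinoid isomerase that defines mature RPE, did not pass the filter. Nor did TTR, which was at 0 in GSTA4 and had 0 to 4 reads in the control libraries. Of the neuron and photoreceptor markers SAG, RCVRN and CRX were at 0 in GSTA4, and SAG and CRX also in WT. In GFP replicates 1 to 3 CRX had 17, 3 and 0 reads, SAG 10, 0 and 3 and RCVRN 6, 3 and 7. SYT1, a synaptic vesicle protein, rose against both controls (0.56 and 0.35 on the log2 scale). It stood at 121, 130.4 and 141 CPM in GSTA4, 89.4, 83.5 and 93 in GFP and 86.5, 106 and 116 in WT. NRL, of the same list, fell by 1.29 against GFP (edgeR adjusted p 0.0357) and was not called against WT (adjusted p 0.597). TUBB3, also tested, was called against neither control. Of the endothelial markers the cadherin CDH5 was at 0 in GSTA4 and at 0 to 12 reads in the control libraries, the 12 in GFP replicate 1. KDR, a receptor for VEGF, fell against both controls (-0.74 and -1.09). It stood at 38.1, 37.6 and 35.7 CPM in GSTA4, 67.9, 57.3 and 60.7 in GFP and 93.3, 70.8 and 73.2 in WT. The immune genes PTPRC and CD3E were at 0 in GSTA4 and had at most 4 reads in any control library.

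GSTA4 itself, at chr6:52977953-52995284 on GRCh38, checked the labels. It stood at 396, 419.9 and 430.1 CPM in the GSTA4 libraries, at 7.82, 9.09 and 9.43 in GFP and at 4.41, 4.84 and 7.13 in WT. All GSTA4 libraries lay far above both controls, 5.56 higher than GFP on the log2 scale (SE 0.11, edgeR adjusted p 3.7e-18) and 6.23 against WT. Reads of the ORF and of the endogenous gene are not separated in the table. Its relatives GSTA1 and GSTA2 had too few reads to be tested.

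Beyond the ORF, 29.2% of tested genes were called against GFP (4439 genes, at an edgeR adjusted p below 0.05), 14.7% higher and 14.6% lower in GSTA4. Against WT the share was 38.6%, with 19.7% higher and 19% lower. Genes called in the same direction against both controls made up 19.3% of those tested, 9.65% higher (1465 genes) and 9.69% lower (1471 genes). Thus 66.1% of the calls against GFP held with WT as control, 65.8% of the rises and 66.5% of the falls, and 50.1% of the calls against WT held with GFP. The contrasts share the GSTA4 libraries, so the second control is not a separate replicate of that line.

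Between the controls themselves 22.2% of genes were called. Of 1416 genes called against GFP and not against WT, 652 differed between GFP and WT, and 87 genes were called in opposite directions against the 2 controls. Among the 865 calls of at least 1 on the log2 scale, 607 were falls and 258 were rises, and 71.9% of the 865 held with WT. The 3 GSTA4 libraries did not overlap the 3 GFP libraries in 42.3% of tested genes.

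**Figure D1:**
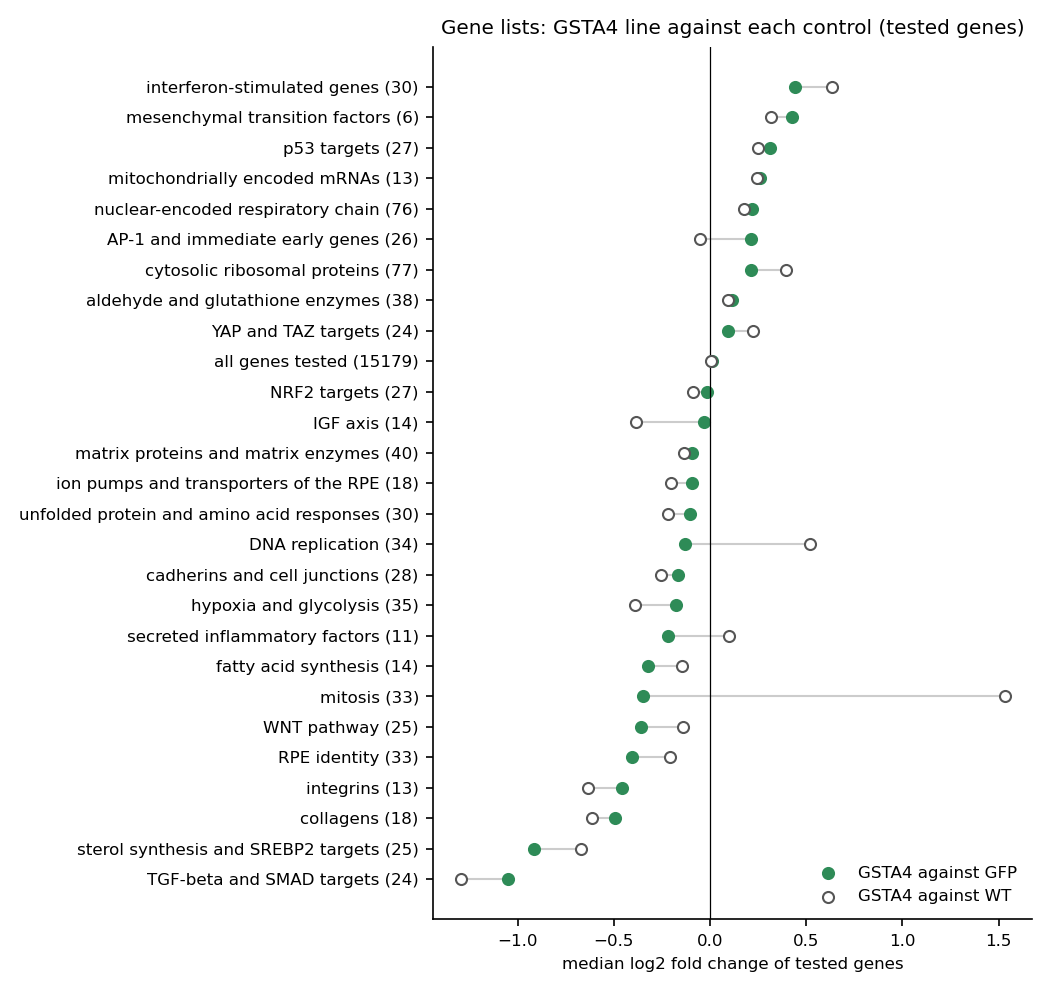
Median log2 fold change of the tested members of each gene list (number tested in parentheses), in the GSTA4 line against GFP (filled) and against WT (open). The all-genes median lies near 0 with both controls, sterol synthesis and TGF-beta targets lie lowest with both, and mitosis and DNA replication change sign with the control.

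Of 38 tested aldehyde and glutathione enzymes, GSTA4 included, 9 rose and 6 fell against GFP, and 9 and 5 of these held with WT. Their median change was 0.12, against 0.01 over all genes. These and the following list counts are to be read against the 14.7% higher and 14.6% lower among all genes tested. Both directions occurred among enzymes of the same chemistry. GPX1, the cytosolic glutathione peroxidase, had 189, 199.8 and 187 CPM in GSTA4, 72.4, 95.2 and 87.5 in GFP and 86.1, 78.3 and 84.5 in WT. Its GSTA4 libraries lay above all controls (log2 fold change 1.18, SE 0.083, adjusted p 7.75e-10 against GFP). GPX1 has processed pseudogenes with which it can share reads. GPX3, the secreted peroxidase, moved the other way, with 382, 365 and 377 CPM in GSTA4, 1092, 1130.0 and 1133 in GFP and 1473, 1489 and 1479 in WT. No libraries overlapped, and its log2 fold change was -1.58 (SE 0.073, adjusted p 1.39e-12). GPX4, which reduces lipid peroxides inside membranes, had 395, 385 and 361 CPM in GSTA4 and 329, 375 and 352 in GFP, ranges that overlap, and was not called (adjusted p 0.179).

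The aldehyde dehydrogenases split likewise. ALDH1A3, which makes retinoic acid, had 1270.4, 1228 and 1219 CPM in GSTA4, 1937, 1941 and 2089 in GFP and 1751, 1837 and 1765 in WT, a log2 fold change of -0.68 against GFP (adjusted p 3.58e-08). ALDH2, the mitochondrial acetaldehyde and 4-hydroxynonenal dehydrogenase, was also lower, with 39.8, 33.8 and 35.7 CPM against 40.6, 51.1 and 49.7 in GFP (log2 fold change -0.37, adjusted p 0.00511). In both genes the GSTA4 libraries lay below every control library. The rises that held were ABCC1, ALDH3A2, ALDH7A1, ALDH9A1, GSTM2, GSTZ1 and PTGR1 beside GPX1 and GSTA4. ALDH3A2, the fatty aldehyde dehydrogenase, rose by 0.48 and PTGR1, which reduces 4-hydroxynonenal, by 0.32 against GFP.

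Among 27 tested NRF2 targets, 5 rose and 7 fell against GFP, of which 4 and 6 held with WT, and the median was -0.01 (3 rose without GFP replicate 2 or without GSTA4 replicate 2). NQO1, a quinone reductase often used as an NRF2 readout, had 8.31, 8.62 and 9.21 CPM in GSTA4, 16.4, 14.5 and 16.8 in GFP and 15.7, 13.9 and 16.2 in WT. It fell by 0.87 on the log2 scale against GFP (SE 0.12, adjusted p 1.14e-05). HMOX1, heme oxygenase, was low throughout, with 3.43, 4.2 and 3.44 CPM in GSTA4 and 3.65, 5.58 and 2.65 in GFP, and its libraries overlapped (adjusted p 0.805). TXNRD1, thioredoxin reductase, and FTL, the ferritin light chain, rose by 0.33 and 0.35 against GFP and by 0.16 and 0.28 against WT.

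The most uniform fall was in cholesterol synthesis. Of 25 tested genes of sterol synthesis and SREBP2 targets, 22 fell and 0 rose against GFP, and 21 of the falls held with WT. Median changes were -0.91 and -0.67, so the list sits lower against both controls, and 12 of its members were also higher in GFP than in WT. SREBP2, the product of SREBF2, is cut and enters the nucleus when membrane sterol is scarce, where it switches on these genes from promoters that commonly also carry CCAAT boxes.

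INSIG1, which holds SREBP2 in the endoplasmic reticulum and is itself a target, had 31.7, 29.4 and 26.1 CPM in GSTA4, 98.8, 119 and 118 in GFP and 66.2, 70.7 and 67.4 in WT. No GSTA4 library reached any control, and its log2 fold change was -1.95 against GFP (SE 0.081, adjusted p 2.71e-13) and -1.23 against WT. SQLE, squalene epoxidase, had 60.4, 59 and 52.6 CPM in GSTA4, 102, 109 and 113 in GFP and 101, 83.1 and 94.3 in WT. MSMO1, a methyl sterol oxidase, had 35.7, 34.9 and 32.1 CPM in GSTA4, 95.5, 103 and 95.4 in GFP and 70.6, 65.9 and 65.3 in WT. SQLE and MSMO1 fell by 0.91 and 1.52 against GFP, with no overlap. HMGCS1, which makes the precursor of mevalonate, had 56.4, 53.9 and 52.3 CPM in GSTA4, 116, 119 and 125 in GFP and 71.1, 68.8 and 65.3 in WT. Its fall was 1.15 against GFP but 0.34 against WT, and GFP itself stood 0.81 above WT. SREBF2 fell by 0.35, less than most of its targets, while FDPS, LPIN1 and PMVK were not called against GFP.

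Promoter windows of RefSeq (GRCh38.p14), from 250 bases before to 50 after a start, were at hand for 19 of the listed genes, and 16 of these 19 belong to genes that fell. The letters CACNCCAC, one form of the sterol regulatory element, occurred on either strand in 4 of the 16 (25%), against 7.05% of 27305 genes with a window. CCAAT occurred in 15 of the 16 (93.8%), against 39.7% of all. The longer form TCACNCCAC, which contains the shorter one, was in 1 of the 16 and in 1.39% of all. Over all 19, whether they fell or not, the shares were 21.1% for CACNCCAC and 84.2% for CCAAT. CACNCCAC was chosen after values were seen, and the 27305 genes were not limited to those tested. No conclusion about the falls is therefore drawn from these shares. A match describes the letters and does not show a site in use. The 4 genes that fell with both CACNCCAC and CCAAT in a window are shown from 10 bases before the first match to 10 bases after the last, on the gene's strand, with the matches of either strand in capitals.
IDI1: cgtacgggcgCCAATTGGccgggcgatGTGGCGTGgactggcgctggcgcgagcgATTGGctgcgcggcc
INSIG1: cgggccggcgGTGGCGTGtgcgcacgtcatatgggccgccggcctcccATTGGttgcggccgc
SC5D: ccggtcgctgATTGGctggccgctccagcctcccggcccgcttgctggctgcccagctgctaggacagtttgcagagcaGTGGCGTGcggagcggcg
SREBF2: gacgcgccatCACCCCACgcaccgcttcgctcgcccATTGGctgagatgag

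The stretches lie at chr10:1048959-1049028 (IDI1, minus strand), chr7:155297660-155297722 (INSIG1, plus strand), chr11:121292705-121292801 (SC5D, plus strand) and chr22:41832963-41833013 (SREBF2, plus strand). Of these genes IDI1, an isomerase of the sterol pathway, fell by 0.94 against GFP and SC5D, a sterol desaturase, by 0.88. INSIG1 and SREBF2 are given above.

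Fatty acid synthesis, partly under SREBP1, fell less evenly, with 8 of 14 tested genes lower and 2 higher against GFP, of which 6 and 2 held with WT. SCD, the stearoyl-CoA desaturase, had 254, 233 and 215 CPM in GSTA4, 695, 735 and 765 in GFP and 558, 553 and 528 in WT (log2 fold change -1.65, SE 0.066, adjusted p 1.29e-13 against GFP). FADS1 and FADS2, neighbouring desaturases of polyunsaturated fatty acids, fell by 1.26 and 1.39 against GFP and by 1.07 and 0.90 against WT. PNPLA3, a lipase, fell by 1.44 against GFP and by 0.69 against WT, and GFP itself stood 0.75 above WT. In all 4 genes the GSTA4 libraries lay below every control library. SREBF1 and ACSS2 rose, by 0.33 and 0.38.

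**Figure D2:**
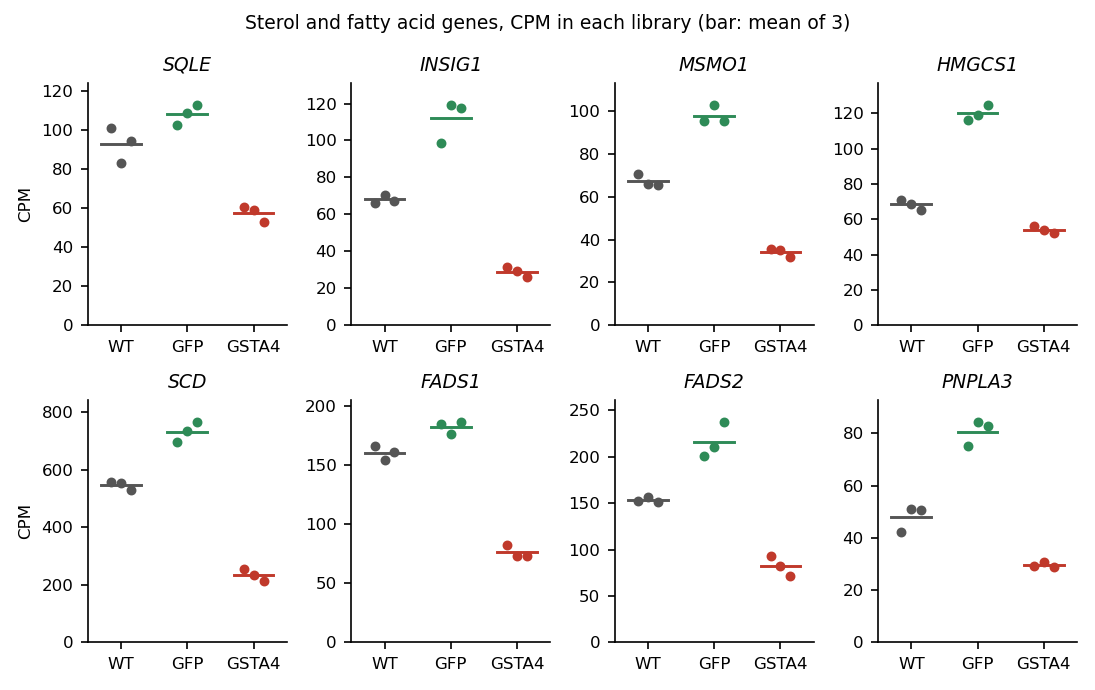
CPM of 8 sterol and fatty acid genes in each WT, GFP and GSTA4 library (points; bar, mean of 3), on linear axes from 0. In every panel the GSTA4 libraries lie below both controls; HMGCS1 comes closest, at 56.4, 53.9 and 52.3 CPM against 71.1, 68.8 and 65.3 in WT.

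The list of TGF-beta and SMAD targets, which also holds ligands and receptors of the pathway, had the lowest median of the 26 lists. Of 24 tested, 17 fell and 4 rose against GFP (2 without GSTA4 replicate 3), and 17 falls and 2 rises held with WT, with medians of -1.05 and -1.30. The ligand TGFB2 was among the rises (log2 fold change 1.12 against GFP and 0.97 against WT), and so were the ligand TGFB1 and the receptor TGFBR2, which rose by 0.46 and 0.31 against GFP but were not called higher against WT (log2 fold changes -0.25 and 0.16, adjusted p 0.0592 and 0.139).

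Downstream genes were lower. COL1A1, a chain of type I collagen, had 3.24, 3.67 and 6.66 CPM in GSTA4, 82.8, 84.4 and 80.2 in GFP and 91.5, 133 and 143 in WT. Its log2 fold change against GFP was -4.19 (SE 0.2, adjusted p 2.96e-12). JUNB, an AP-1 subunit, had 45.1, 41.2 and 41.4 CPM in GSTA4, 170.0, 189 and 203 in GFP and 201, 222 and 222 in WT (-2.14, SE 0.075). The GSTA4 libraries of both genes lay below all others without overlap. CDKN2B, the p15 inhibitor of cyclin-dependent kinases, had 57.9, 55.5 and 62.7 CPM against 199, 202 and 211 in GFP and 255, 331 and 323 in WT. CCN2, a secreted matricellular protein, had 415, 419.9 and 476 CPM in GSTA4, 1213, 1215 and 1270.5 in GFP and 1642, 1984 and 2023 in WT. Both fell further from WT than from GFP, CDKN2B by 2.37 against 1.80. The feedback inhibitor SMAD7 fell by 1.21, TAGLN, an actin-binding protein of contractile cells, by 3.56 and LTBP2, which binds microfibrils, by 3.11. ACTA2, smooth muscle actin, went the other way, by 0.43 against GFP (edgeR adjusted p 0.0495) and 1.46 against WT. For ACTA2, GFP itself stood 1.04 above WT.

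Collagens, other matrix proteins and integrins followed in part. Of 18 collagen genes 10 fell and 4 rose (7 and 2 with WT as well). COL4A3 and COL4A4, chains of basement membrane collagen that share a promoter region, fell from 109, 106 and 107 and 201, 188 and 194 CPM in GFP to 23.7, 21.4 and 24.8 and 61.9, 53.4 and 71.7 (log2 fold changes -2.20 and -1.64). COL4A1 and COL4A2 fell against GFP by 0.68 and 0.44 but rose against WT by 0.76 and 0.63.

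Of 40 matrix proteins and enzymes, 17 fell and 6 rose, with 15 and 5 held. MMP2, gelatinase A, had 6.35, 3.52 and 5.57 CPM in GSTA4, 64, 58 and 62.6 in GFP and 55, 74.8 and 75.7 in WT, and its log2 fold change was -3.56 (SE 0.18, adjusted p 3.51e-12). The elastic-fibre proteins FBLN2 and FBLN5 fell by 2.42 and 2.79. EFEMP1, a fibulin made by the RPE, had 665, 748 and 798 CPM against 1654, 1875 and 1917 in GFP and 1707, 2174 and 2175 in WT. LOXL4, a lysyl oxidase that cross-links collagen, rose, with 45.7, 37 and 38.8 CPM in GSTA4, 3.34, 2.58 and 2.51 in GFP and 0.746, 0.367 and 0.412 in WT (log2 fold changes 3.85 and 6.28). The related LOX and LOXL1 fell by 1.96 and 1.06.

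Of 13 integrin genes 8 fell and 2 rose, with 7 and 2 held. ITGA11, the collagen-binding alpha 11 subunit, was the deepest fall of all named genes, with 1, 0 and 4 reads in the GSTA4 libraries and 129.6, 120.1 and 148 CPM in GFP and 153, 224 and 214 in WT. Its fitted log2 fold change was -10.08 (adjusted p 1.11e-14), or -11.59 without GSTA4 replicate 3. ITGAV and ITGB5, which pair as a vitronectin receptor used by the RPE to bind shed outer segments, fell by 0.64 and 1.08. ITGA7, a laminin receptor subunit, rose by 0.72, with 296, 279 and 282 CPM in GSTA4 against 167, 182 and 172 in GFP. Fibroblast and myofibroblast markers, 4 of 12 tested, summed to 552 to 587 CPM in GSTA4, 731 to 799.9 in GFP and 787 to 801 in WT. Most of that sum was PDGFRB, a growth factor receptor, at 525, 542 and 549 CPM in GSTA4. PDGFRB, FAP and COL1A1 fell and ACTA2 rose against both controls, the call of ACTA2 against GFP lying close to the threshold. DCN, LUM and TCF21 were at 0 in GSTA4 and had 0 to 4 reads in the control libraries. The part of these markers in the results was not tested.

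**Figure D3:**
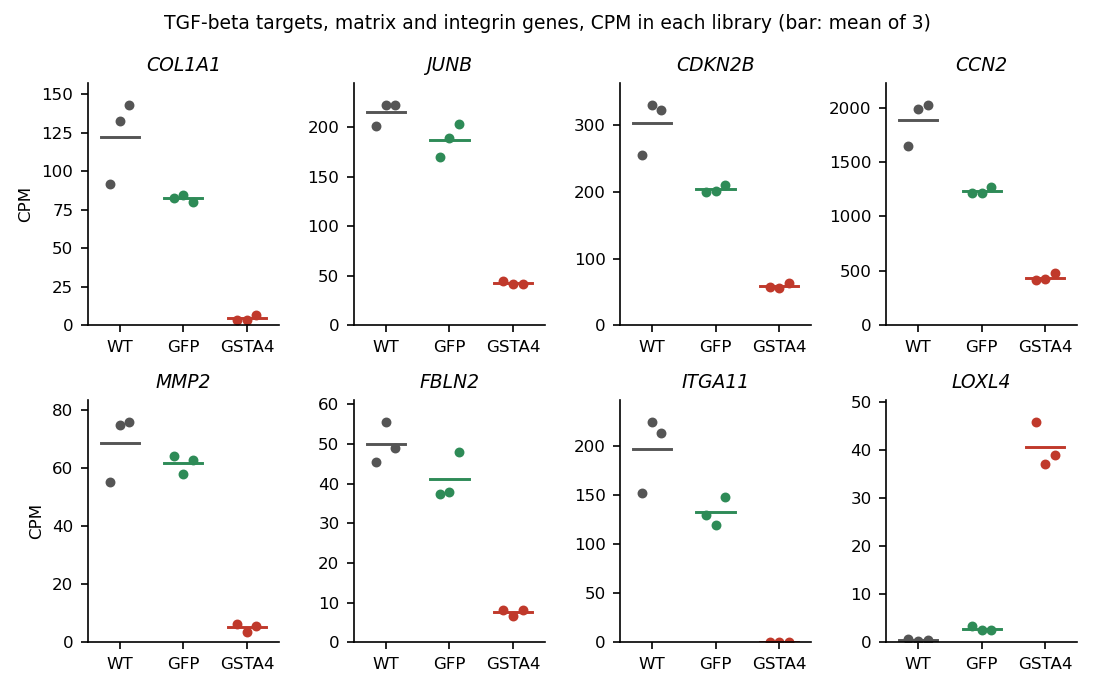
CPM of 8 TGF-beta target, matrix and integrin genes in each WT, GFP and GSTA4 library (points; bar, mean of 3), on linear axes from 0. COL1A1, MMP2 and ITGA11 lie near the axis in GSTA4, and LOXL4 is high in GSTA4 alone of these groups.

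Junction genes changed in both directions. Of 28 tested cadherin and junction genes, 11 fell and 7 rose, with 8 and 6 held. CDH1, E-cadherin, had 0.0635, 0.375 and 0.206 CPM in GSTA4, 16.3, 11.5 and 20.2 in GFP and 1.99, 2.71 and 5.07 in WT. Its log2 fold change was -6.22 against GFP (-6.83 without GSTA4 replicate 2) and -3.94 against WT, and GFP stood 2.28 above WT. F11R, the tight-junction protein JAM-A, had 33.3, 42.7 and 41.4 CPM against 83.1, 89.5 and 86.9 in GFP and 81.6, 91.7 and 95.4 in WT. CDH10, a type II cadherin, rose from 3.65, 2.72 and 3.53 CPM in GFP to 9.33, 13 and 12.6 (log2 fold change 1.81), and CDH13 fell by 2.23.

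The list of mesenchymal transition factors, which also holds VIM, has 13 genes, of which 7 could not be tested. Of the 6 tested, 4 rose with both controls and 0 fell against GFP (1 fell without GSTA4 replicate 1). TCF4 fell by 0.99 against WT (edgeR adjusted p 0.000998) and was not called against GFP (adjusted p 0.108). ZEB2, a repressor of epithelial genes, had 159, 164 and 171 CPM in GSTA4, 113, 103 and 109.8 in GFP and 147, 123 and 128 in WT (log2 fold change 0.60, adjusted p 7.3e-07 against GFP). TWIST1 and VIM, vimentin, rose by 0.63 and 0.41. ZEB1 rose by 0.39 (adjusted p 0.0148), a call lost without GFP replicate 2, GFP replicate 3 or GSTA4 replicate 3.

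Genes of RPE identity fell more often than they rose. Of 33 tested, 17 fell and 1 rose against GFP, and 11 and 1 held with WT, with medians of -0.40 and -0.21. Against WT alone 14 fell and 8 rose, and 2 members were called in opposite directions against the controls. Of these 2, BEST1 fell by 0.68 against GFP and rose by 0.88 against WT. The list differs between the controls too, with 15 members higher and 5 lower in GFP than in WT. PMEL, the fibril protein of pigment granules, had 85.2, 110.0 and 109 CPM in GSTA4, 315, 390.3 and 365 in GFP and 175, 284 and 275 in WT. TYRP1, a melanin-synthesis enzyme, had 36.7, 46.5 and 55.9 CPM in GSTA4, 172, 219 and 209.5 in GFP and 85.6, 133 and 136 in WT. Their GSTA4 libraries lay below every control, with log2 fold changes of -1.82 and -2.11 against GFP and -1.27 and -1.35 against WT. VEGFA, a growth factor that the RPE secretes, fell by 1.10 and 1.47. The regulators OTX2 and MITF fell by 0.56 and 0.42 against GFP, and MITF was not called against WT (adjusted p 0.0795). LRAT, which esterifies retinol, was the rise that held with both controls (log2 fold change 1.87 and 3.74). Without WT replicate 1, which enters this contrast through the shared spread and the read filter, 2 members rose.

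Targets of p53 rose in most cases, with 18 of 27 tested higher and 2 lower against GFP, and 15 and 2 held with WT. Their median was 0.31 against GFP and 0.25 against WT. FAS, a death receptor, had 22, 21.7 and 25.7 CPM in GSTA4, 8.81, 10.7 and 9.36 in GFP and 6.09, 7.48 and 6.95 in WT (log2 fold change 1.27, SE 0.13, adjusted p 1.3e-07 against GFP). FDXR, a mitochondrial reductase, had 41.4, 45 and 48.9 CPM against 17.3, 20.5 and 23 in GFP and 15.8, 18.1 and 20 in WT. CCNG1, cyclin G1, had 366, 395 and 428 CPM in GSTA4, 238, 250.4 and 237 in GFP and 223, 246 and 243 in WT. In each of the 3 the GSTA4 libraries lay above every control library. MDM2, which degrades p53, rose by 0.28 and BAX, which opens mitochondria in apoptosis, by 0.52. CDKN1A, the p21 inhibitor of the cell cycle, rose less, from 164, 206 and 192 CPM in GFP to 217, 240.2 and 241 (log2 fold change 0.31, adjusted p 0.0045). SUSD6 fell by 1.08.

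The direction of mitosis genes depended on the control. Of 33 tested, 13 fell and 1 rose against GFP (0 rose without GFP replicate 1 or 2 or without GSTA4 replicate 1 or 2), while 32 rose and 0 fell against WT, and the medians were -0.35 and 1.53. Between the controls, 32 members were higher in GFP than in WT. The member that rose with both controls was BUB1B, a spindle checkpoint kinase encoded on chromosome 15 (0.60 against GFP, where libraries overlapped, and 2.13 against WT). MKI67, the Ki-67 antigen of cycling cells, had 38.1, 45 and 45 CPM in GSTA4, 56.6, 57.5 and 59.1 in GFP and 7.52, 10.1 and 13.7 in WT. GSTA4 thus lay between the controls, 0.44 lower than GFP and 2.03 higher than WT on the log2 scale. The same order held for TOP2A, topoisomerase II alpha, with 38.1, 35.8 and 33 CPM in GSTA4, 52.9, 53.3 and 52.3 in GFP and 6.96, 10.6 and 12.4 in WT. CENPF, a kinetochore protein, fell by 0.69 against GFP and rose by 1.08 against WT.

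Of 34 DNA replication genes 2 fell and 1 rose against GFP, a smaller share than among all genes, and 21 rose against WT. The falls, MCM6 and UHRF1, had adjusted p-values of 0.0329 and 0.0461, and UHRF1 was not called when any 1 of the 6 GFP and GSTA4 libraries was left out. MCM6 was lost without GFP replicate 2 or 3 and without GSTA4 replicate 1 or 3. MCM7, a helicase subunit, rose by 0.31. The number of falls ran from 0 without GSTA4 replicate 1 to 5 without WT replicate 1, and was 1 without GFP replicate 2, GFP replicate 3, GSTA4 replicate 2 or GSTA4 replicate 3. Rises numbered 2 without WT replicate 1 or GFP replicate 3.

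**Figure D4:**
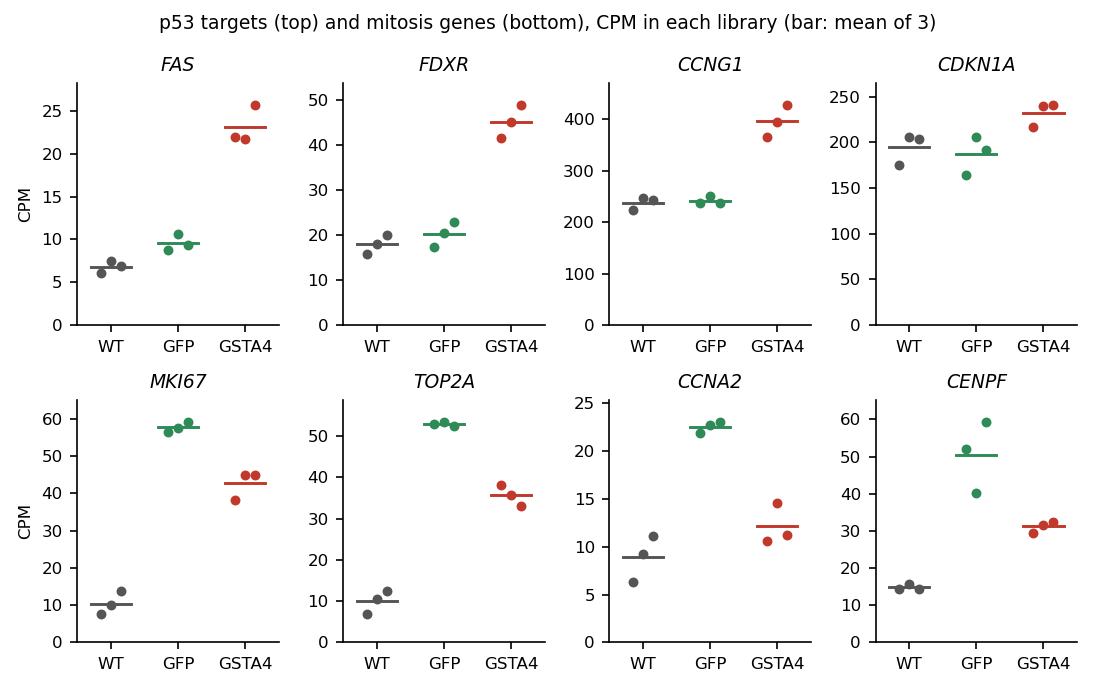
CPM of 4 p53 targets (top) and 4 mitosis genes (bottom) in each WT, GFP and GSTA4 library (points; bar, mean of 3), on linear axes from 0. The p53 targets are highest in GSTA4, and the mitosis genes are highest in GFP and lowest in WT, with CCNA2 overlapping between GSTA4 and WT.

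Calls among genes of protein synthesis and respiration were nearly all small rises. Of 77 cytosolic ribosomal protein genes, 49 rose and 0 fell against GFP, and 45 held with WT, with medians of 0.21 and 0.39. Without GFP replicate 1 the rises numbered 29 with 1 fall, and without GSTA4 replicate 2 they numbered 30. RPL29 had 920.3, 964 and 967 CPM in GSTA4, 577, 699 and 683 in GFP and 505, 600.0 and 561 in WT (log2 fold change 0.54, adjusted p 9.86e-06). Many of these genes have processed pseudogenes with which they can share reads. EEF2, the translocation factor of elongation, had the largest rise in CPM among genes outside the mitochondrial genome, from 5579.9, 6576 and 7025 in GFP to 7920.4, 8228 and 8064 in GSTA4 (log2 fold change 0.34).

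Of 76 nuclear-encoded respiratory chain genes 33 rose and 0 fell (21 rose without GFP replicate 1), and 20 held with WT. UQCRFS1, the Rieske iron-sulphur protein, had 73.6, 77.3 and 71.8 CPM against 48.4, 48.9 and 50.6 in GFP and 48.8, 43.9 and 48.8 in WT, without overlap. Of 13 mitochondrially encoded mRNAs 10 rose and 0 fell, and 8 held. The share of reads on mitochondrial genes was 7.73% ± 0.16 (SD, n = 3) in GSTA4, 6.32% ± 0.248 in GFP and 6.02% ± 0.0366 in WT. MT-CO1, a subunit of cytochrome oxidase, rose by 0.37 (adjusted p 0.000134) and MT-ND1, of complex I, by 0.46.

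Hypoxia and glycolysis genes fell in 14 of 35 cases and rose in 6 against GFP, with 13 and 2 held. CA9, a carbonic anhydrase induced by low oxygen, had 5.01, 5.55 and 5.43 CPM in GSTA4, 35.2, 29.5 and 40.4 in GFP and 10.3, 11.7 and 12.6 in WT (log2 fold change -2.72, adjusted p 4.14e-11). LDHA, lactate dehydrogenase, had 104, 111 and 109 CPM in GSTA4, 250.3, 258 and 252 in GFP and 631, 396 and 398 in WT. SLC2A1, the glucose transporter GLUT1, had 757, 669 and 618 CPM in GSTA4, 1436, 1474 and 1475 in GFP and 2071, 1765 and 1713 in WT. All 3 were lowest in GSTA4, while the controls took different orders: CA9 was higher in GFP than in WT, and LDHA and SLC2A1 were higher in WT. GAPDH and PFKM rose with both controls, GAPDH by 0.37 and 0.24.

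Immediate early genes rose more often than they fell against GFP. Of 26 tested, 12 rose and 4 fell, and 8 and 4 of these held with WT. Against WT alone 8 rose and 7 fell, and the median turned from 0.22 to -0.05. EGR1, a serum-responsive zinc finger factor, had 56.3, 64.9 and 78.6 CPM in GSTA4, 5.85, 6.3 and 7.8 in GFP and 1.18, 2.49 and 2.53 in WT. Every GSTA4 library lay above every control, with log2 fold changes of 3.32 (SE 0.16, adjusted p 3.51e-12) and 5.01. FOS and JUN rose by 0.90 and 0.77 against GFP, MYC by 0.42. FOSL1, an AP-1 subunit, rose by 2.28 and 2.08, and DUSP4, a phosphatase that acts on ERK, by 1.19 and 0.54. JUNB, given above, and IER3 fell, IER3 from 97.1, 109 and 109 CPM in GFP to 46.7, 47.2 and 49.6. Of 24 YAP and TAZ targets 9 rose and 4 fell (8 and 3 held). DLC1, a GTPase-activating protein, rose by 0.65 and the kinase gene LATS2, a negative regulator of YAP, by 0.42. CCN2, NT5E and F3 fell with both controls.

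Antigen presentation and interferon-stimulated genes rose more often than they fell. Of 30 tested, 13 rose and 3 fell against GFP (1 fell without GSTA4 replicate 2), and 12 and 1 held with WT, with medians of 0.44 and 0.63. B2M, the light chain of class I molecules, had 472, 492 and 494 CPM in GSTA4, 238, 285 and 259.7 in GFP and 216, 185 and 200.0 in WT (log2 fold change 0.90, SE 0.08, adjusted p 2.85e-08). IFITM3, which restricts virus entry, had 175, 173 and 171 CPM in GSTA4, 87.9, 99.2 and 104 in GFP and 95.6, 94.5 and 92 in WT. No libraries of GSTA4 overlapped a control in these genes. ISG15, a ubiquitin-like modifier, rose by 0.93 against GFP but was not called against WT (adjusted p 0.468).

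Of 30 genes of the unfolded protein and amino acid responses 14 fell and 7 rose (4 rose without GFP replicate 2 or 3), and 14 and 4 held. The falls took in the chaperones and folding enzymes HSPA5, HSP90B1, CALR, CANX, PDIA4, PDIA6 and DNAJC3. HSPA5, the main endoplasmic reticulum chaperone, had 422, 457 and 459 CPM in GSTA4, 520.4, 595 and 619 in GFP and 553, 597 and 614 in WT (log2 fold change -0.37, adjusted p 0.0003). The amino acid carrier SLC3A2 and its partner SLC7A5 fell by 1.03 and 0.84. The rises that held were the stress factors ATF5 (0.65), DDIT3 (0.43), TRIB3 (0.80) and SESN2 (0.46), where the number is the log2 fold change against GFP. SLC7A8, a further partner of SLC3A2, was among the 4 largest falls in CPM, from 1596, 1727 and 1691 in GFP and 1446, 1831 and 1865 in WT to 464, 469 and 475. Its log2 fold change was -1.83 (SE 0.078, adjusted p 3.72e-13). AHNAK and CLSTN2 fell by 0.72 and 1.34.

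Of 25 WNT pathway genes 11 fell and 3 rose, with 7 and 2 held. SFRP1, a secreted WNT antagonist, had 278, 285 and 283 CPM in GSTA4, 615, 696 and 683 in GFP and 916, 876 and 879 in WT. Other secreted members moved differently from SFRP1. DKK3 rose by 0.45 against GFP and 0.64 against WT, and DKK1 rose by 0.29 against GFP but fell by 0.23 against WT. The receptor FZD8 fell by 1.54 and FZD1 rose by 0.61 against GFP. Of 14 IGF axis genes 4 fell and 3 rose (4 and 2 held), and the binding proteins went both ways. IGFBP3, the main carrier of IGF in serum, had 12.5, 13.1 and 15.5 CPM against 64.5, 83 and 80.1 in GFP and 34.3, 68.9 and 68.1 in WT. IGFBP7 fell by 0.81 and IGFBP2 rose by 1.88 against GFP, and both calls held with WT. Of 18 ion pumps and transporters 5 fell and 3 rose, all 8 with both controls. Of 11 secreted inflammatory factors that could be tested 3 were called, a share close to the 29.2% of all genes. ICAM1 and IL33 fell by 1.61 and 1.28, and C3 rose by 0.59 (adjusted p 0.0223), a call lost without GFP replicate 1, GSTA4 replicate 1 or GSTA4 replicate 2. The rises on that list numbered 2 without WT replicate 1 or GSTA4 replicate 1 and 0 without GFP replicate 1 or GSTA4 replicate 2.

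Among single genes, several large rises started from low levels in both controls. GPC3, a cell-surface glypican, had 53.1, 49 and 52.1 CPM in GSTA4, 5.01, 4.8 and 4.95 in GFP and 4.54, 3.81 and 4.12 in WT (log2 fold change 3.38, SE 0.12, adjusted p 1.44e-14). MAOA, the monoamine oxidase of the outer mitochondrial membrane, had 106, 99.2 and 106 CPM in GSTA4, 15.3, 15.3 and 18.6 in GFP and 17.6, 16.3 and 17.3 in WT. MYOZ2, a sarcomere protein, had 61.1, 62.4 and 57.6 CPM in GSTA4, 6.45, 5.58 and 4.41 in GFP and 5.59, 9.53 and 9.72 in WT. In these 3 genes every GSTA4 library lay far above every control library. OSR1, a zinc finger factor, rose by 3.75, and GRIA3, a glutamate receptor subunit, by 3.73. ATP1B2, a beta subunit of the sodium pump, had 126, 96 and 93 reads in GSTA4 and 13, 0 and 0 in GFP. Its fitted log2 fold change of 4.48 (adjusted p 8.34e-06) was 9.74 without GFP replicate 1, 3.90 without GFP replicate 2 and 3.87 without GFP replicate 3. RLN2, the hormone relaxin, had 73, 41 and 34 reads in GSTA4, 3, 8 and 7 in GFP and 0 in each WT library. It was at least 52.6-fold higher than WT, against a floor of 3 reads over the group.

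Long noncoding RNAs were called against GFP in 64 cases higher and 128 lower of 1029 tested, or 18.7%, against 31.8% of 13037 protein-coding genes. With WT as control 47 of the 64 rises and 66 of the 128 falls held. Among protein-coding genes 1365 of 2094 rises and 1388 of 2046 falls held. C1orf220, a noncoding RNA at chr1:178542796-178548889, had 15.9, 15.1 and 14.2 CPM in GSTA4, 0.532, 0.286 and 0.882 in GFP and 0.683, 0.66 and 0.825 in WT (log2 fold change 4.70, adjusted p 1.4e-10). RALGPS2-AS1, at chr1:178723009-178726284, is the neighbouring named rise, at 3.51, or 4.54 without GFP replicate 1. The counting strand is not given in the sources used here, so antisense reads and those of an overlapping gene cannot be told apart.

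Several of the deepest falls reached the detection floor. OTOG, otogelin, and CAPN6, a calpain, had 0 reads in each GSTA4 library, and 14 called genes did so in all. Against a floor of 3 reads over the group, CAPN6 was at least 20.9-fold lower than GFP and at least 36.2-fold lower than WT. OTOG was at least 35.2-fold lower than GFP, but its WT libraries had 1, 0 and 12 reads and it was not called against WT (adjusted p 0.0719). Its fitted log2 fold change against GFP was -8.19, or -7.15 without GFP replicate 1. OLR1, the receptor for oxidised low-density lipoprotein, had 2 reads over the GSTA4 libraries against 87 in GFP, a ratio of 45.5 (exact 95% interval 12.2 to 382, counting error only), and 75 in WT. MOV10L1, a helicase, had 1 read against 64, a ratio of 67.0 (11.6 to 2686).

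Other falls had reads in every group. AMTN, amelotin, had 1.46, 1.35 and 1.24 CPM in GSTA4, 101, 126 and 126 in GFP and 66.5, 233 and 231 in WT (log2 fold change -6.44, SE 0.45, adjusted p 5.66e-10). RAB17, a small GTPase of epithelial transport, had 1.84, 1.57 and 2.06 CPM in GSTA4, 40.6, 39.9 and 47.6 in GFP and 40.6, 32.7 and 28.7 in WT. CSF1R, the receptor for colony-stimulating factor 1 and otherwise a marker of macrophages, had 0.444, 0.45 and 0.481 CPM in GSTA4, 14, 18.2 and 18.8 in GFP and 2.86, 10.6 and 9.84 in WT. Of 7 blood and immune markers CSF1R was the one tested, and the list summed to 0.444 to 0.962 CPM in GSTA4, 16.3 to 19 in GFP and 3.36 to 10.9 in WT, with PTPRC and CD3E as given above. Every GSTA4 library lay below every control library in AMTN, RAB17 and CSF1R. IGFL2-AS1 (chr19:46189029-46203062) and the pseudogene IGFL1P1 within it (chr19:46197021-46197280) fell by 4.19 and 4.81 against GFP and by 5.62 and 6.61 against WT. IGFL1P1 had a log2 fold change of -5.62 without GSTA4 replicate 1.

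Positions of genes were taken from RefSeq on GRCh38.p14 for 15052 of 15144 tested genes with a unique symbol. On chromosome 11, 239 of 820 genes fell and 71 rose against GFP, and 149 and 49 held with WT, with a median of -0.15 against GFP and -0.07 against WT. Its summed level was 59759, 59782 and 60001 CPM in GSTA4, 66175, 68365 and 69384 in GFP and 64923, 65176 and 65987 in WT. Every GSTA4 library was below every control library. The 50 neighbouring genes from DNAJB13 to RAB30-DT (chr11:73951026-83073712) had a median of -0.40 against GFP and -0.29 against WT, with 29 falls and 1 rise.

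Chromosome 15 showed the reverse over part of its length. The 50 tested genes from FSIP1 to MYL12BP1 (chr15:39597440-42572693) had a median of 0.45 against GFP and 0.31 against WT, with 31 rises and 3 falls, and 44 of 50 estimates were above 0. Their summed level was 3035, 3117 and 3132 CPM in GSTA4, 2120.3, 2176 and 2278 in GFP and 2034, 2287 and 2276 in WT. Over the whole of chromosome 15 the libraries of the 3 groups overlapped. Adjoining runs of 50 from RPL5P1 to SPRED1 and from CDAN1 to FAM227B, the latter of which spans B2M, had medians of 0.36 and 0.20. Over all 13925 runs of 50 genes in the genome, the 1st and the 99th percentile of the median were -0.27 and 0.19. These runs were picked for their values, so no test is given. Between the controls, the medians of the 2 leading runs differed by 0.09 on chromosome 11 and by -0.10 on chromosome 15 (GFP against WT). Of whole chromosomes, X had the highest median against GFP, at 0.085 (0.069 against WT), beside 0.066 for chromosome 15. On X 100 of 541 genes rose and 42 fell against GFP, and 70 and 23 held with WT.

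**Figure D5:**
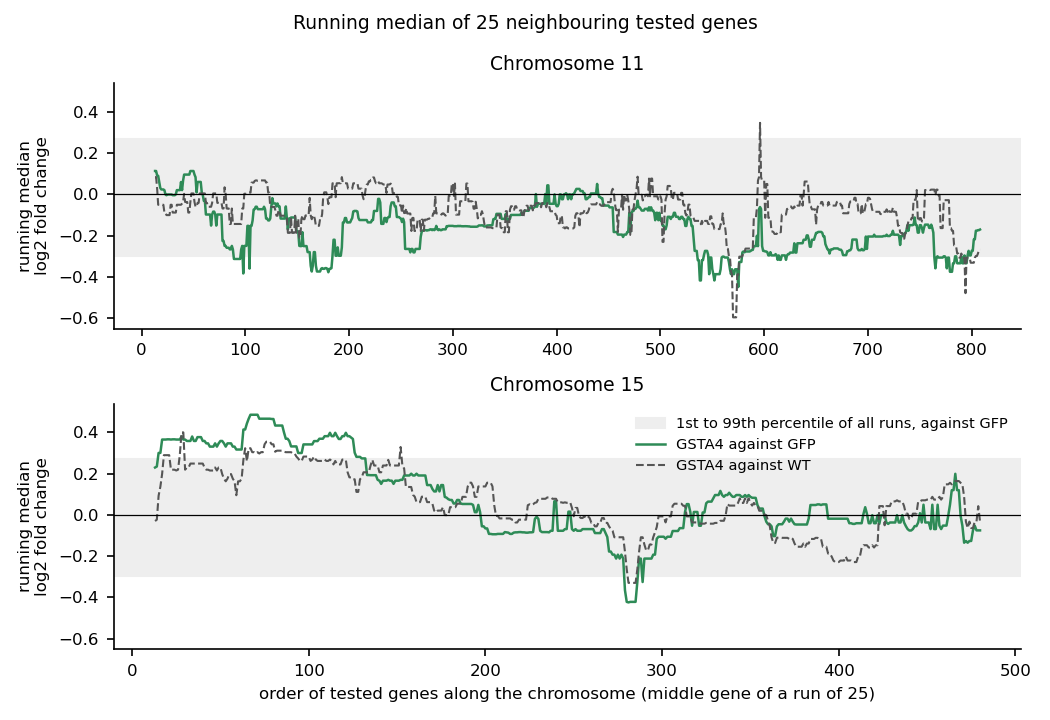
Running median of the log2 fold change over 25 neighbouring tested genes along chromosomes 11 and 15, by gene order, against GFP (solid) and WT (dashed); the band holds the 1st to 99th percentile of all such runs against GFP. Against GFP, chromosome 15 lies above the band over an early stretch and dips below it once later, and chromosome 11 dips below it in several places.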

How the data were processed

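Poly(A) RNA of ARPE-19 lines was measured in 12 libraries, 4 groups of 3. The deposited table holds raw counts per gene. STAR 2.7.1a, featureCounts 1.6.2 and the build GRCh38 are named in the submitters' processing notes, and the annotation release and strand setting are not given in the sources used here. Lines with no gene name were left out (20014 of 60605, 0.485 to 0.822% of reads per library). Total counts were 12630675 to 17045454 per library.

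Genes were tested with edgeR 4.0.16 (quasi-likelihood, two-sided, R 4.3.3) on all 12 libraries in 1 fit, with TMM scaling, the filterByExpr filter by group and Benjamini-Hochberg adjustment over 15179 genes, called below 0.05. CPM are after TMM scaling. Folds are given on the log2 scale of the fit. A gene held with WT if it was called in the same direction against WT. Whether the libraries of a group come from separate cultures is not given in the sources used here. No 2 libraries agreed within sampling noise.

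The gene lists are hand-written, and members and lists were chosen with earlier results of these data known, so no list was tested. Named genes are GSTA4, the 12 largest rises and falls against GFP with a mean of at least 1 CPM and no overlap, the 8 largest each way with both controls, the 4 largest each way in CPM, the 4 largest opposite calls, the 4 members of each list with the lowest adjusted p, 3 long noncoding RNAs each way and a few genes of interest. The text gives those that matter, and some items are not reported here. Other members named were chosen after their values were seen, as was the motif CACNCCAC. Genes were placed by symbol with RefSeq (GRCh38.p14).

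Alternatives were other scalings, filters, DESeq2 1.42.0, a replicate block, fits on fewer libraries, each library left out, a fold threshold and WT as control. The scripts were tested on simulated data. Intervals and floors cover counting error only.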

Additional observations from a re-analysis of the deposited data

How the results depend on the processing

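The counts of called genes stayed within 1.5 times their value under every scaling, filter and tool tried and without any 1 library. With DESeq2, 4296 genes were called in GSTA4 against GFP. Leaving out 1 library gave 3459 to 5062 calls against GFP, 4742 to 6020 against WT, 2267 to 3297 in GFP against WT and 2297 to 3135 with both controls. Requiring a log2 fold change of at least 1 left 865 genes against GFP, 1187 against WT, 502 in GFP against WT and 505 with both controls, by construction of the threshold. Rises made up 258 of these 865 and 179 of these 505. Under the other settings with GFP as control rises made up 47.5 to 50.9% of calls. With a replicate block, 4733 genes were called against GFP, 6104 against WT, 3779 in GFP against WT and 3150 with both controls. Nothing in the labels says that a number marks a shared batch, and same-numbered GSTA4 and GFP libraries had correlations of 0.029, 0.047 and -0.028 in their deviations from the group means. The values were 0.183, 0.052 and 0.089 for GSTA4 and WT and 0.181, 0.041 and 0.062 for GFP and WT. Not every library correlated best with its own number. Of 137 named genes 133 were called, 127 of them under all 16 settings that kept GFP as control. C3, CENPA, FAM111B, MCM6, UHRF1 and ZEB1 lost the call in at least 1. With WT as control 12 named genes reversed to rises, by log2 fold changes of 0.44 (CCNA2), 0.53 (CDC6), 1.79 (CENPA), 1.08 (CENPF), 1.52 (FAM111B), 1.57 (KIF20A), 0.46 (MCM6), 2.03 (MKI67), 1.88 (PIMREG), 1.84 (TOP2A), 1.28 (TROAP) and 1.57 (UHRF1). Those genes stood higher in GFP than in WT. Depth limits genes under about 0.2 CPM, where 3 reads or fewer are seen in a library.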
